A study of Arabidopsis thaliana with 6 samples.

Results

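GIGANTEA (GI, locus AT1G22770), a component of the circadian clock, was followed through 6 Affymetrix ATH1 arrays of Arabidopsis flowers. It was read by 1 probe set, 264211_at, of 22746 on the array that are not controls, and it was found by its symbol in the platform annotation. It was chosen from its difference between the genotypes, seen with and without pairing the arrays by replicate number. Those values are therefore given as a description and not as a test. Flowers of homozygous pop2-1 plants and flowers of wild-type plants, both of the Ler accession, had 3 arrays each. The labels describe pollinated flowers of stages 14 to 15 from plants kept at 21 °C with a photoperiod of 16 hours. POP2 encodes the transaminase that degrades γ-aminobutyric acid (GABA), so the comparison asks what differs in flowers with high GABA. POP2 lies on chromosome 3 and GI on chromosome 1. The replicates are called biological in the labels, without saying whether they were separate plants, pools or days, and the growth text of the wild-type samples repeats the mutant's wording.

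GI is a large plant-specific protein that links the circadian clock to flowering time. Its transcript cycles daily, is low in the morning and peaks late in the day, and morning clock proteins such as CCA1 and LHY repress it. The protein stabilises the blue-light receptor ZTL and acts with FKF1 to remove the CDF repressors of CONSTANS, which promotes flowering in long days. GI also acts in cold and salt responses and in sugar signalling. A level of GI therefore depends on the hour at which tissue is frozen, and the labels give no hour for any of the 6 samples.

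The GI transcript was higher on every pop2-1 array than on every wild-type array. Its MAS5 signal, a linear hybridisation intensity scaled to a common average on each array, was 929, 1069 and 1024 in pop2-1 replicates 1, 2 and 3. In wild-type replicates 1, 2 and 3 it was 556, 662 and 394. The groups did not overlap, and the lowest pop2-1 signal was 1.40 times the highest wild-type signal. That separation, in the direction of a higher pop2-1 signal, was shared by 9.88% of the 13647 probe sets tested, so it is common on these arrays.

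The mean was 1008 ± 71.9 in pop2-1 flowers and 537 ± 135 in wild-type flowers (SD, n = 3 each). On the log2(signal + 16) scale the difference was 0.92 ± 0.18 (limma's standard error), a 1.89-fold higher level in pop2-1, with a 95% interval of 0.51 to 1.32. In whole flowers a change in the RNA of each cell and a change in the share of cells that hold the transcript cannot be told apart.

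**Figure D1:**
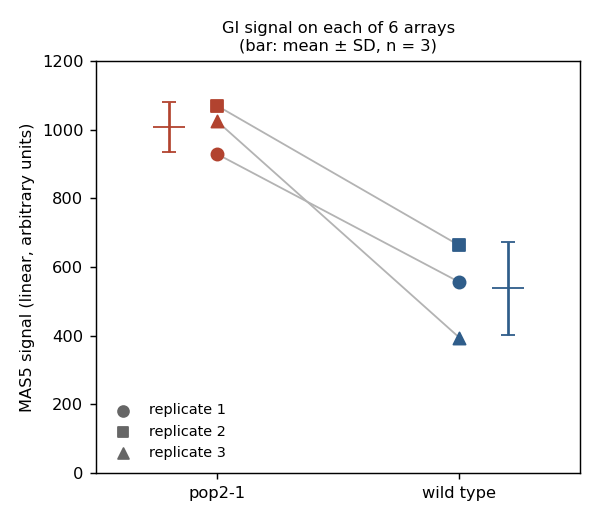
GI signal (MAS5, linear scale from 0) in pop2-1 flowers at the left and wild-type flowers at the right, with a grey line joining arrays of the same replicate number and bars for mean ± SD (n = 3). The pop2-1 points lie between 929 and 1069 and the wild-type points spread from 394 to 662.

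The spread of GI was small in the mutant and large in the wild type. The highest pop2-1 signal was 1.15 times the lowest, and the highest wild-type signal was 1.68 times the lowest. On the log2 scale the SD was 0.10 in pop2-1 and 0.37 in wild type. Of all tested probe sets, 17.7% had a smaller SD than GI among the pop2-1 arrays, but 96.9% had a smaller SD than GI among the wild-type arrays. This contrast ran against the arrays as a whole, whose median SD was 0.20 in pop2-1 and 0.12 in wild type. The spread of GI in wild type came mostly from replicate 3, which lay 0.40 below its group's mean, and replicate 2, which lay 0.32 above it.

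Within each replicate number the pop2-1 array had the higher GI signal. The log2 difference was 0.72 for replicate 1, 0.68 for replicate 2 and 1.34 for replicate 3. The first 2 numbers thus gave 1.65-fold and 1.60-fold, and the third gave 2.54-fold through its low wild-type signal. A higher pop2-1 signal within all 3 numbers was found for 22.2% of tested probe sets.

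Whether GI passed an adjusted p under 0.05 depended on the pairing. Without the replicate number in the model its limma adjusted p was 0.073, and with the number as a block it was 0.0215. These p-values belong to the comparison that chose the gene and are given to describe it. Without the block 20 probe sets, 0.147% of those tested, were called higher in pop2-1. With the block 109 were called higher, 0.799%, and GI was among these.

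The block changed little in GI itself. Ordered by p over all tested probe sets, GI stood 104th without the block and 106th with it. Its own residual SD was 0.27 without the block and 0.26 with it, on the log2 scale. The SD that limma expects at this signal from all probe sets was 0.17 without the block and 0.15 with it. After limma had combined both, the SD of GI was 0.22 without the block and 0.18 with it. Of the variation of GI within groups, 53.1% went with the replicate number. Unrelated arrays would average 50% by degrees of freedom, and the median over tested probe sets was 63.2%.

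Other settings left the direction and the rough size of the GI difference in place. The estimate ran from 0.71 to 1.08 when 1 array at a time was left out, with the lowest value without wild-type replicate 3. Since the groups did not overlap, leaving out an array could not have turned the direction. The limma adjusted p was under 0.05 in 1 of these 6 fits, the one without pop2-1 replicate 1 (0.0303), and was 0.263 without wild-type replicate 3. The unadjusted limma p of GI was 0.00073 without pop2-1 replicate 1 and 0.000561 with all arrays and no block. The lower adjusted p there thus did not come from a smaller p of GI. With the block and both arrays of a number left out, the limma adjusted p was 0.000246 without replicate 1, 0.123 without replicate 2 and 0.0757 without replicate 3. These fits keep the fewest arrays of all settings, so their SD rests mostly on the one limma expects from all probe sets. Without replicate 1 the GI differences left were 0.68 and 1.34, and nothing is read from the small p there. With a weight for each array the GI difference was 0.98 (limma adjusted p = 0.00807). The weights were 0.414, 0.302 and 2.64 for pop2-1 replicates 1, 2 and 3. For wild-type replicates 1, 2 and 3 they were 1.125, 1.39 and 1.94. The weighted fit thus leaned on replicate 3, where the GI difference was 1.34. Its small p does not speak for all arrays alike.

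**Figure D2:**
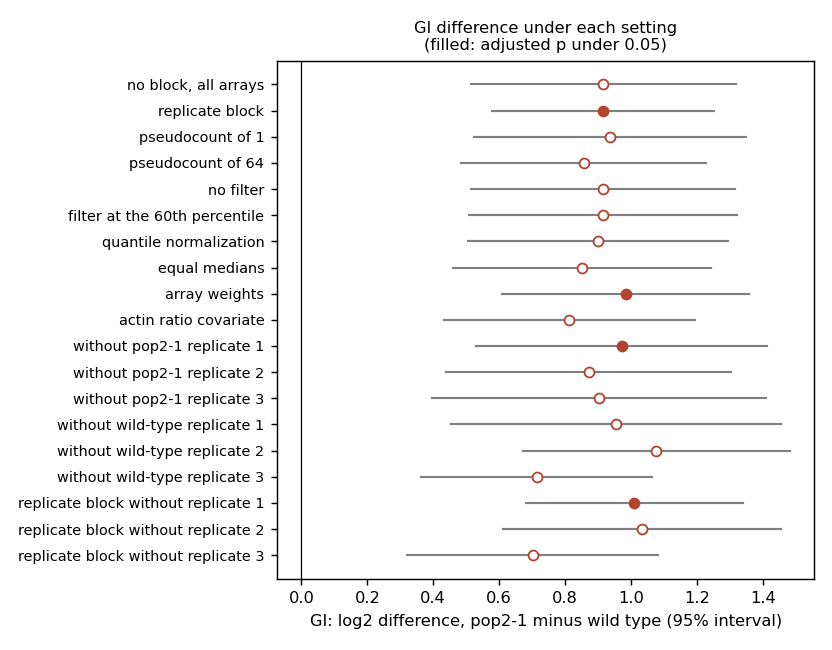
Log2 difference of GI, pop2-1 minus wild type, on the horizontal axis under each setting (rows), with limma's 95% interval; filled dots mark an adjusted p under 0.05. The estimates stay between 0.70 and 1.08 while the adjusted p crosses the threshold in a minority of settings.

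RNA quality differed between the arrays and is given beside the GI values. The 3'/5' signal ratio of the actin control, which rises as RNA degrades, was 1.81, 9.73 and 2.70 in pop2-1 replicates 1, 2 and 3 and 2.16, 2.93 and 1.72 in wild-type replicates 1, 2 and 3. Replicate 2 had the highest actin ratio and the highest GI signal of each group. Wild-type replicate 3 had the lowest actin ratio and the lowest GI signal of all 6 arrays. The GAPDH control ratio was 0.895, 1.73 and 0.937 in pop2-1 replicates 1, 2 and 3. In wild-type replicates 1, 2 and 3 it was 1.04, 0.972 and 0.927. Replicate 2 was its highest in pop2-1 too, but in the wild type replicate 1 was. Its lowest of all 6 arrays was pop2-1 replicate 1. Without pop2-1 replicate 2 the GI difference was 0.87, and with the log2 actin ratio as a covariate it was 0.81 ± 0.17 (limma adjusted p = 0.0646).

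The 4 marker lists of other floral tissues held 11 of their 30 genes as named probe sets. Of these, ANX1, AGL62 and IKU2 were too dim to test, IKU2 at 2.8 to 7.1 over the 6 arrays. The summed signal of the 4 named pollen markers of 8 was 694 to 1350 over the pop2-1 arrays and 657 to 793 over the wild-type arrays. The 3 tested, ANX2, MGH3 and ACT12, had log2 differences of 0.49, 0.53 and 0.43. Each was higher in pop2-1 within every replicate number, as were 22.2% of tested probe sets. None passed in limma without the block (adjusted p of 0.412 to 0.517) or with it (0.188 to 0.27), and 2 passed in some other setting. For 4 of 8 markers of young seed and ovule the sum was 330 to 447 on pop2-1 arrays, against 458 to 812 on wild-type arrays. Among them BAN, the anthocyanidin reductase gene of the seed coat, fell (log2 -2.45 ± 0.29, limma adjusted p = 0.0111). INO, an ovule integument gene and the other tested member, had a log2 difference of 0.31 ± 0.20 and did not pass (limma adjusted p = 0.567). Without BAN the sum was 287 to 376 on pop2-1 arrays and 229 to 354 on wild-type arrays. For 2 of 6 nectary markers the sum was 7379 to 7929 on pop2-1 arrays, against 7181 to 7521 on wild-type arrays, and BSMT1, a scent methyltransferase gene among them, rose by 1.90 on the log2 scale. SWEET9, the nectary sugar exporter that makes up most of this sum, averaged 7117 in pop2-1 flowers and 7148 in wild-type flowers and did not pass (limma adjusted p = 0.983). The green tissue marker RCA, the Rubisco activase gene, had 13928 to 15824 in the mutant and 15370 to 16516 in the wild type. The part of tissue makeup in the GI difference was not tested.

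The other genes of the clock and its surroundings were taken from lists of 120 genes besides GI, of which 11 had a named probe set. No gene of the 13 morning genes, such as CCA1, LHY and PRR9, was among them. A phase of the clock therefore could not be read from the listed morning genes against the evening genes. Of the 11 genes, 10 were bright enough to test and HYH, a bZIP factor of light signalling related to HY5, was not, at 29.5 to 47.2 on the pop2-1 arrays and 23.3 to 38.2 on the wild-type arrays.

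In limma 0 of the 10 tested genes passed, where 0.462% of all tested probe sets did. With the replicate block 0 passed as well, where 1.9% of all did. At an unadjusted p under 0.05 there was 1 of 10 without the block, COR27, where 11.9% of all probe sets were at that level. With the block there was 1, COR15A. The share of all probe sets was not taken there, so nothing is read from that count. The log2 difference was above 0 for 6 of the 10, against 55.4% of all tested probe sets. The median of the 10 was 0.10, and the median of all probe sets was 0.03.

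COR27, a cold-regulated gene under clock control whose product represses evening clock genes, had the smallest p of these 10 without the block, and COR15A had it with the block. The COR27 signal was 317, 307 and 249 in pop2-1 replicates 1, 2 and 3, and 198, 226 and 244 in wild-type replicates 1, 2 and 3. The groups did not overlap, but pop2-1 replicate 3 and wild-type replicate 3 were nearly equal. The log2 difference of 0.36 ± 0.16 had a 95% interval of 0.01 to 0.71 and did not pass (limma adjusted p = 0.408). By replicate number it was 0.64, 0.42 and 0.03 for replicates 1, 2 and 3, whereas that of GI was greatest for replicate 3.

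AT4G33980, listed with COR27 among the evening genes by its locus, had signals of 341, 183 and 240 in pop2-1 replicates 1, 2 and 3. In wild-type replicates 1, 2 and 3 they were 215, 232 and 186. These groups overlapped, since pop2-1 replicate 2 was the lowest of all 6 arrays. The log2 difference was 0.22 ± 0.22 (limma adjusted p = 0.715), and without pop2-1 replicate 1 it was -0.0035. The remaining evening genes, among them TOC1, PRR5, ELF3, ELF4, LUX and FKF1, were not analysed here.

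Of the clock components listed under neither the morning nor the evening genes, 5 of 20 were tested. TIC, TIME FOR COFFEE, a nuclear protein that keeps the amplitude of the clock, was close to equal, with a mean of 1103 ± 63.8 in pop2-1 flowers and 1039 ± 73.7 in wild-type flowers (SD, n = 3 each). Its log2 difference was 0.09, with a 95% interval of -0.16 to 0.34 (limma adjusted p = 0.78). XCT, XAP5 CIRCADIAN TIMEKEEPER, whose loss alters the period of the clock, averaged 358 ± 41.3 in pop2-1 flowers and 319 ± 53.4 in wild-type flowers (SD, n = 3 each), a log2 difference of 0.17 ± 0.16. FIO1, an RNA methyltransferase whose loss lengthens the period, averaged 200.3 ± 35.3 in pop2-1 flowers and 202 ± 40.1 in wild-type flowers (SD, n = 3 each). Its difference of -0.01 changed sign with several settings. The other genes of this list, called by their loci, were AT4G01280 at -0.04 ± 0.19 and AT5G52660 at -0.13 ± 0.16, and the sign of each turned in some settings. Limma adjusted p over these 5 genes ran from 0.699 to 0.99.

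Among genes for partners of GI and for flowering time 2 of 28 were tested. SPY, an O-fucosyltransferase of gibberellin signalling that binds GI, had signals of 651, 755 and 621 in pop2-1 replicates 1, 2 and 3 and 733, 557 and 577 in wild-type replicates 1, 2 and 3. The groups overlapped, and the log2 difference was 0.12 ± 0.14 (limma adjusted p = 0.757). AT1G69570, listed by its locus, had 182, 186 and 213 in pop2-1 and 167, 172 and 155 in wild type. Its groups did not overlap, yet its log2 difference of 0.21 ± 0.16 did not pass (limma adjusted p = 0.616). Groups without overlap and with pop2-1 higher were thus found for 2 of the 10 genes, COR27 and AT1G69570, where 9.88% of all probe sets had them.

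The clock output list gave 1 tested gene of 19. COR15A, a cold-induced protective protein of the chloroplast, had signals of 462, 280 and 372 in pop2-1 replicates 1, 2 and 3 and 534, 394 and 509 in wild-type replicates 1, 2 and 3. It was lower in pop2-1 within each number, with log2 differences of -0.20, -0.47 and -0.44, although the groups overlapped. That held for 17.3% of all tested probe sets. The log2 difference was -0.37 ± 0.19 (limma adjusted p = 0.488), and it did not pass with the replicate block (limma adjusted p = 0.185).

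**Figure D3:**
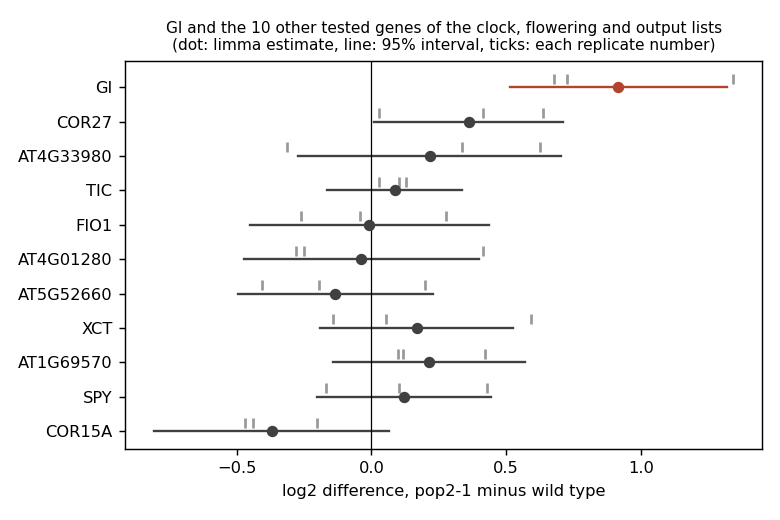
Log2 difference, pop2-1 minus wild type, of GI and the 10 other tested genes of the clock, flowering and output lists, with limma's 95% interval as a line and the difference within each replicate number as ticks. GI lies at 0.92 and the others between -0.37 and 0.36.

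Genes beside GI on the chromosome were set against it, a comparison chosen after values of these data had been seen. Of the 10 protein-coding genes on each side in the order of assembly TAIR10.1, 14 had a named probe set and 9 were tested. Their log2 differences lay between -0.13 and 0.23, with a median of 0.03. None of the 9 passed in limma without the replicate block, where 0.462% of all tested probe sets did, or with it, where 1.9% did. At an unadjusted p under 0.05 there were 0 without the block, against 11.9% of all, and with 9 genes these counts say little. The nearest tested genes were AT1G22750 and AT1G22790, at -0.07 ± 0.14 and 0.06 ± 0.14. CYTC-1, a cytochrome c gene, averaged 8475 in pop2-1 and 8962 in wild type.

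**Figure D4:**
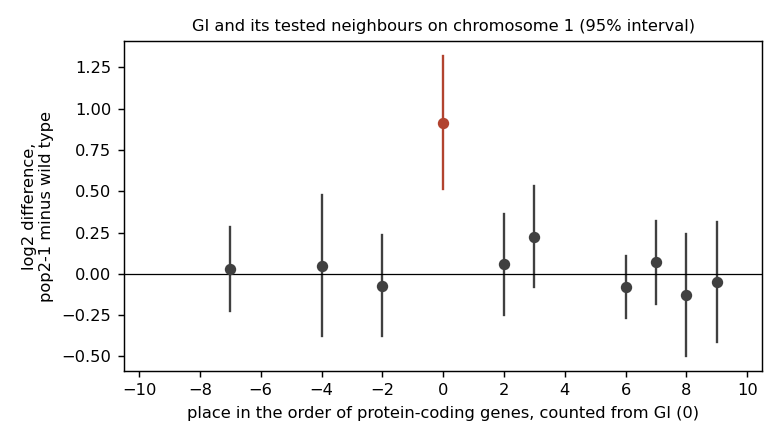
Log2 difference, pop2-1 minus wild type, with limma's 95% interval for GI (place 0) and its 9 tested neighbours, by their place in the order of protein-coding genes on chromosome 1. The neighbours lie between -0.13 and 0.23.

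Likeness to GI was measured as the root mean square difference between log2 profiles over the 6 arrays, each centred on its own mean. The profiles hold the difference between the genotypes that chose GI, so the genes found by it differ between the genotypes by construction. Among 7314 tested probe sets with a named gene the median difference from GI was 0.51. Of the clock and flowering genes, AT1G69570 (0.40) and COR27 (0.41) were the closest to GI and COR15A (0.76) the farthest.

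The 6 genes most like GI were AT4G29700 (0.11), XTH33 (0.13), AT5G08440 (0.13), AT1G52700 (0.14), AT1G11440 (0.15) and AT4G35510 (0.16). AT4G29700, the closest, had signals of 238, 251 and 295 in pop2-1 replicates 1, 2 and 3 and 132, 165 and 110 in wild-type replicates 1, 2 and 3. XTH33, of the xyloglucan endotransglucosylase/hydrolase family that remodels cell walls, had 292, 334 and 399 in pop2-1 and 203, 221 and 151 in wild type. In all 6 genes wild-type replicate 3 was the lowest of the 6 arrays, and in 5 of them wild-type replicate 2 was the highest of the wild type, a pattern that choosing by likeness to GI favours. Their log2 differences were 0.71 to 0.88, and 0 of 6 passed in limma without the block and 1, AT1G11440, with it (adjusted p = 0.0215). The shares of all tested probe sets were 0.462% and 1.9%, and nothing is read from these counts, since the genes were picked for a difference like that of GI.

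With the sign of the GI profile turned, the closest were AT2G24160 (0.16), AT4G08850 (0.17), AT3G05400 (0.18) and AT1G13470 (0.18). AT4G08850 had signals of 687, 524 and 499 in pop2-1 replicates 1, 2 and 3 and 891, 959 and 1161 in wild-type replicates 1, 2 and 3. Wild-type replicate 3 was the highest of the 6 arrays in all 4 genes, which the choice favours too. Without the block 0 of the 4 passed in limma (0.462% of all), and with it 3 did (1.9% of all), AT4G08850, AT3G05400 and AT1G13470 (adjusted p of 0.0411, 0.0213 and 0.0302). Nothing is read from these counts either, since the genes were picked for a difference opposite to that of GI.

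**Figure D5:**
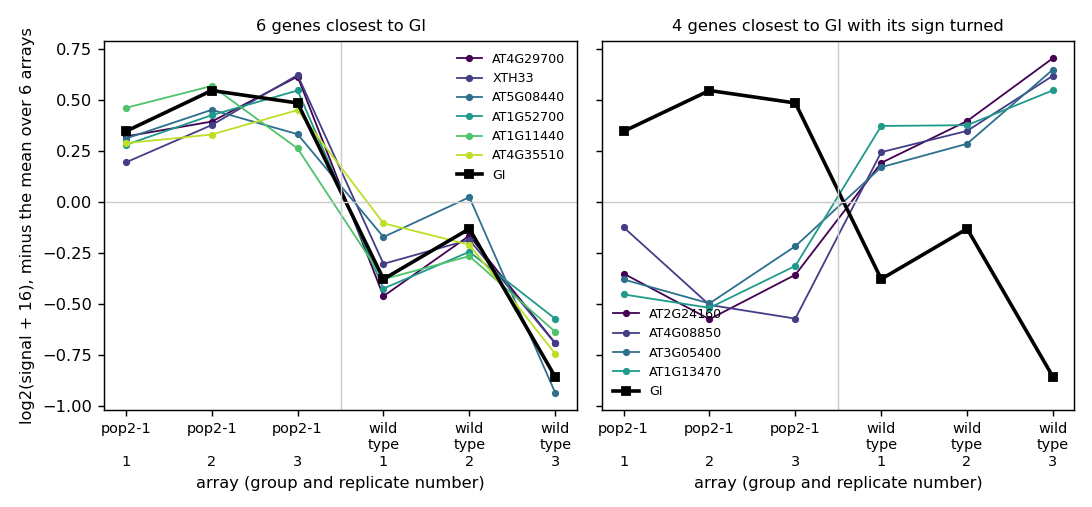
Profiles of log2(signal + 16), each minus its mean over the 6 arrays, for GI (black) and the 6 genes closest to it (left panel) and for the 4 genes closest to GI with its sign turned (right panel), by array with pop2-1 before wild type. The lowest point of GI and of its 6 closest genes is wild-type replicate 3.

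Whether the groups were frozen at different hours was not tested.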

How the data were processed

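The deposited values were MAS5 signal intensity values, 1 per probe set and array, made by the authors with MAS5 per the submitters' processing notes; version and scaling target are not given in the sources used here. After trimming 2% at each end the mean signal of all 6 arrays was 500.04, and their medians lay between 209 and 229. Detection calls were not used, and the number of arrays limits the precision. Gene names came from the platform annotation, updated to TAIR10.1: 13513 of 22746 probe sets had 1 gene, 503 several, and the rest were not listed.

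Here 16 was added to each signal and log2 taken. Probe sets whose mean over 6 arrays did not exceed the 40th percentile were left out, leaving 13647. Genotypes were compared in R 4.3.3 with limma 3.58.1 (lmFit, eBayes with an intensity trend, 2-sided, Benjamini-Hochberg adjustment over all tested), checked on simulated data. Error beside a log2 difference is limma's standard error. GI, the lists and the alternatives were chosen with earlier results of these data known. Listed genes were matched by locus. All tested clock genes were named, then up to 4 members of each other list by smallest p, and the 6 and 4 genes nearest to the GI profile and its mirror. As a check of pairing, each array's deviations from its group mean were correlated with those of its counterpart by number. The correlations were 0.208, 0.418 and 0.172 for replicates 1, 2 and 3. No label says what a number shares, and these values do not settle whether the numbers pair arrays. GI is therefore given with and without the block. Spearman correlations between arrays of a group, across transcripts, were 0.928 to 0.96 for pop2-1, and 0.979 to 0.982 for wild type. POP2 and gene sequences were not analysed here.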

Additional observations from a re-analysis of the deposited data

How the results depend on the processing

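The GI difference kept its direction in all 18 alternatives, of which those leaving out both arrays of a number were chosen after seeing the data. GI was chosen from this difference and its groups did not overlap. Leaving out arrays, the block, array weights, the filter or another pseudocount therefore could not have turned its direction. With the replicate block, the paired fit, it was 0.92. It lay between 0.81 and 0.98 over the 9 that kept every array, 0.71 to 1.08 without 1 array and 0.70 to 1.03 with the block and without a number. Array weights, highest for replicate 3, gave GI a limma adjusted p of 0.00807. Counts of probe sets called over the whole array moved more: rises were 109 with the replicate block, 477 with array weights and 62 with the actin ratio as covariate, and falls 150, 495 and 95 in that order. Falls numbered 27 with no filter and 25 with a filter at the 60th percentile, where the genes tested differ. Without 1 array there were 3 to 199 rises and 2 to 328 falls, the highest without pop2-1 replicate 1. The cause of these shifts was not tested. The median of the 10 clock and flowering genes was 0.039 after scaling to equal medians, which moves the median of all probe sets by less than 0.1, and 0.045 to 0.14 without 1 array, where leaving out pop2-1 replicate 1 gave 0.045 and leaving out wild-type replicate 2 gave 0.047. The sign turned in 6 of the 10 listed genes, none of which passed in limma in any setting. For XCT and SPY it turned with the block and without replicate 2, at -0.045 and -0.032. FIO1, AT4G01280 and AT5G52660 also turned sign in fits with the block and without a number. FIO1 stood at 0.10 with array weights and 0.10 with the covariate, and AT4G01280 at 0.14 with the covariate. Leaving out 1 array gave -0.14 to 0.12 for FIO1, -0.26 to 0.11 for AT4G01280, -0.28 to 0.0051 for AT5G52660 and -0.0035 to 0.42 for AT4G33980. The sign turned for FIO1 without pop2-1 replicate 2 or wild-type replicate 3, and for AT5G52660 without pop2-1 replicate 3. It turned for AT4G33980 without pop2-1 replicate 1, and for AT4G01280 without pop2-1 replicate 2, pop2-1 replicate 3 or wild-type replicate 3. Of the other results for named genes, 251 kept their direction and side of the threshold, and 24 kept their direction and passed it. All 24 belonged to genes picked for likeness to GI or its mirror, which differ between the genotypes by construction. Dim probe sets have no detection call here, which limits what can be said of HYH.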
